A study of Mus musculus with 46 samples.

Results

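The mitochondrial ribosome makes the few proteins that the mitochondrial genome encodes, all of them parts of the respiratory chain and the ATP synthase. Its RNA comes from the mitochondrion, but its proteins are encoded in the nucleus, made in the cytosol and imported, those named Mrpl for the large subunit and those named Mrps for the small one. In the testis, germ cells depend on mitochondria at several stages, and the mitochondria of sperm end up packed around the midpiece of the tail. Described here are all probes whose annotated symbol begins with Mrpl or Mrps followed by a digit, on arrays of whole testis from mice that drank acrylamide. These were 110 of 25697 probes and represented 76 of 16593 genes, 47 of the large subunit with 68 probes and 29 of the small subunit with 42 probes.

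The mice were adult male Swiss mice, and acrylamide, a small electrophilic compound that also forms in heated starchy food, was dissolved in their drinking water at 0.001, 0.01, 0.1, 1 or 10 µg/ml, with plain water as the control. Exposure lasted 1 month (age 3 to 6 months), 6 months (age 11 to 12 months) or 12 months (age 16 to 17 months), so that time of exposure and age rose together. Each of the 46 arrays held RNA from an individual testis. At 1 month each dose had 3 arrays except 0.1 µg/ml, which had 2, and at 6 months each had 3. At 12 months the control, 0.001 and 0.01 µg/ml had 2 arrays each, 0.1 µg/ml had 3, and 1 and 10 µg/ml had 1 each.

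The spermatid genes Prm1 and Odf1 and the germ cell gene Ldhc were above percentile 99.9 of all probes by mean level, and the epididymal gene Lcn5 was at percentile 28.3. The fat gene Adipoq was at percentile 89.0, and 2 of 5 epididymal genes on the array were bright enough to test. These levels do not show how much adjoining tissue the samples held. One array stood apart before any comparison was made: the third replicate of 0.001 µg/ml after 1 month correlated on average by 0.844 with the rest, and each of those by at least 0.974. The labels also number the samples in the order of dose within each time, and the array type carries 8 samples to a chip. Which arrays shared a chip is not given in the sources used here, so the numbers were divided into 6 consecutive runs of 8 (the last of 6) to see whether values moved with position in that order. Median intensity before normalisation ranged from 107.8 to 221.4 across arrays.

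Of the 110 probes, 98 passed the filter on brightness and were tested, 59 of the large and 39 of the small subunit, from 71 genes. The other 12 lay among the dimmest 40% of the array, and for 5 genes (Mrpl15, Mrpl19, Mrpl21, Mrpl32 and Mrps36) no probe was tested. The share that passed was 89.1%, more than in the array as a whole, where the filter sets it, and the median level of the tested members was 9.46 on the log2 scale, against 8.25 over all 15419 probes tested. The median SD within groups was 0.16 for members and 0.12 for all tested probes, and 0.12 and 0.09 without the outlying array. Brightness bears on every share below, because differences between dim probes are compressed in the deposited values. The 76 genes lay on 17 chromosomes, with 11 of them on chromosome 11 and 8 on chromosome 17.

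Promoter sequences from RefSeq (build GRCm38.p6) were matched to 67 of the 76 genes, with 73 promoters. Nuclear respiratory factor 1 (NRF1), the ETS family, which includes the GA-binding protein, and YY1 are transcription factors known to act on nuclear genes for mitochondrial proteins. The words searched on both strands in the 250 bases before each start were GCGCATGCG for NRF1, CCGGAAG for ETS factors, AAGATGGC for YY1 and TATAAA for a TATA box. The ETS word was found in 24.7% of member promoters, against 6.91% of all 32851 promoters and 8.98% of those of protein-coding genes. The NRF1 word was in 9.59%, against 1.45% and 1.93%, and the YY1 word in 5.48%, against 1.57% of all promoters. The TATA word was in 6.85%, against 12.4% and 11.6%. The NRF1 word is nearly its own reverse complement, so one site matches on both strands and was counted once per promoter. A match describes letters in this window, and binding was not measured.

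The 150 bases before the start are shown for Mrps21, the member called in the most comparisons, and for Mrpl39 and Mrpl9, which carry the same NRF1 word and moved in opposite directions with time. They lie at chr3:95871515-95871664 on the minus strand for Mrps21, chr16:84735245-84735394 on the minus strand for Mrpl39 and chr3:94443186-94443335 on the plus strand for Mrpl9. Capitals mark the bases covered by the NRF1 word on either strand.
Mrps21: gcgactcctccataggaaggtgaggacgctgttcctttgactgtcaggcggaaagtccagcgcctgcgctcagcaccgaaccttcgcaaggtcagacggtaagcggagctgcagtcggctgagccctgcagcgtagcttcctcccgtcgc
Mrpl39: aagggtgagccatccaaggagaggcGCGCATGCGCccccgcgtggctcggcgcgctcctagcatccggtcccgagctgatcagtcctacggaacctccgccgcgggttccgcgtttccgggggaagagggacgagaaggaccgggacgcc
Mrpl9: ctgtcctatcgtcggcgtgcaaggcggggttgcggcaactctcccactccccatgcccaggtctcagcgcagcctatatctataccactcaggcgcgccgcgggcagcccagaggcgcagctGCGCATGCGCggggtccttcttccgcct
None of the 4 words was found in the 250 bases before the start of Mrps21. Among members with a promoter that were higher at 12 than at 1 month, 2 of 23 promoters held the NRF1 word and 3 the ETS word. Among those that were lower, 1 of 15 held the NRF1 word and 5 the ETS word.

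Across 17 comparisons of dose and time, the members did not all move one way. In each of them the median log2 difference or slope of the 98 members lay between -0.03 and 0.08, and wherever 5 or more members were called, some rose and others fell. The number above 0 ranged from 42 of 98 at 0.001 µg/ml to 69 at 0.1 µg/ml, both at 1 month. At 0.1 µg/ml 7977 of the 15419 tested probes were above 0, as were 44 of the 59 of the large subunit and 25 of the 39 of the small one. No member was called there. At least 1 comparison called 55 of the 98 probes, from 48 genes, which is 56.1% of members against 48.8% of all tested probes. Called here means an adjusted p under 0.05 in limma, with the adjustment over all 15419 probes, and the background of a direction is the percentage of all tested probes called in it. In bulk tissue, fewer cells of a type and less RNA per cell cannot be told apart.

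**Figure D1:**
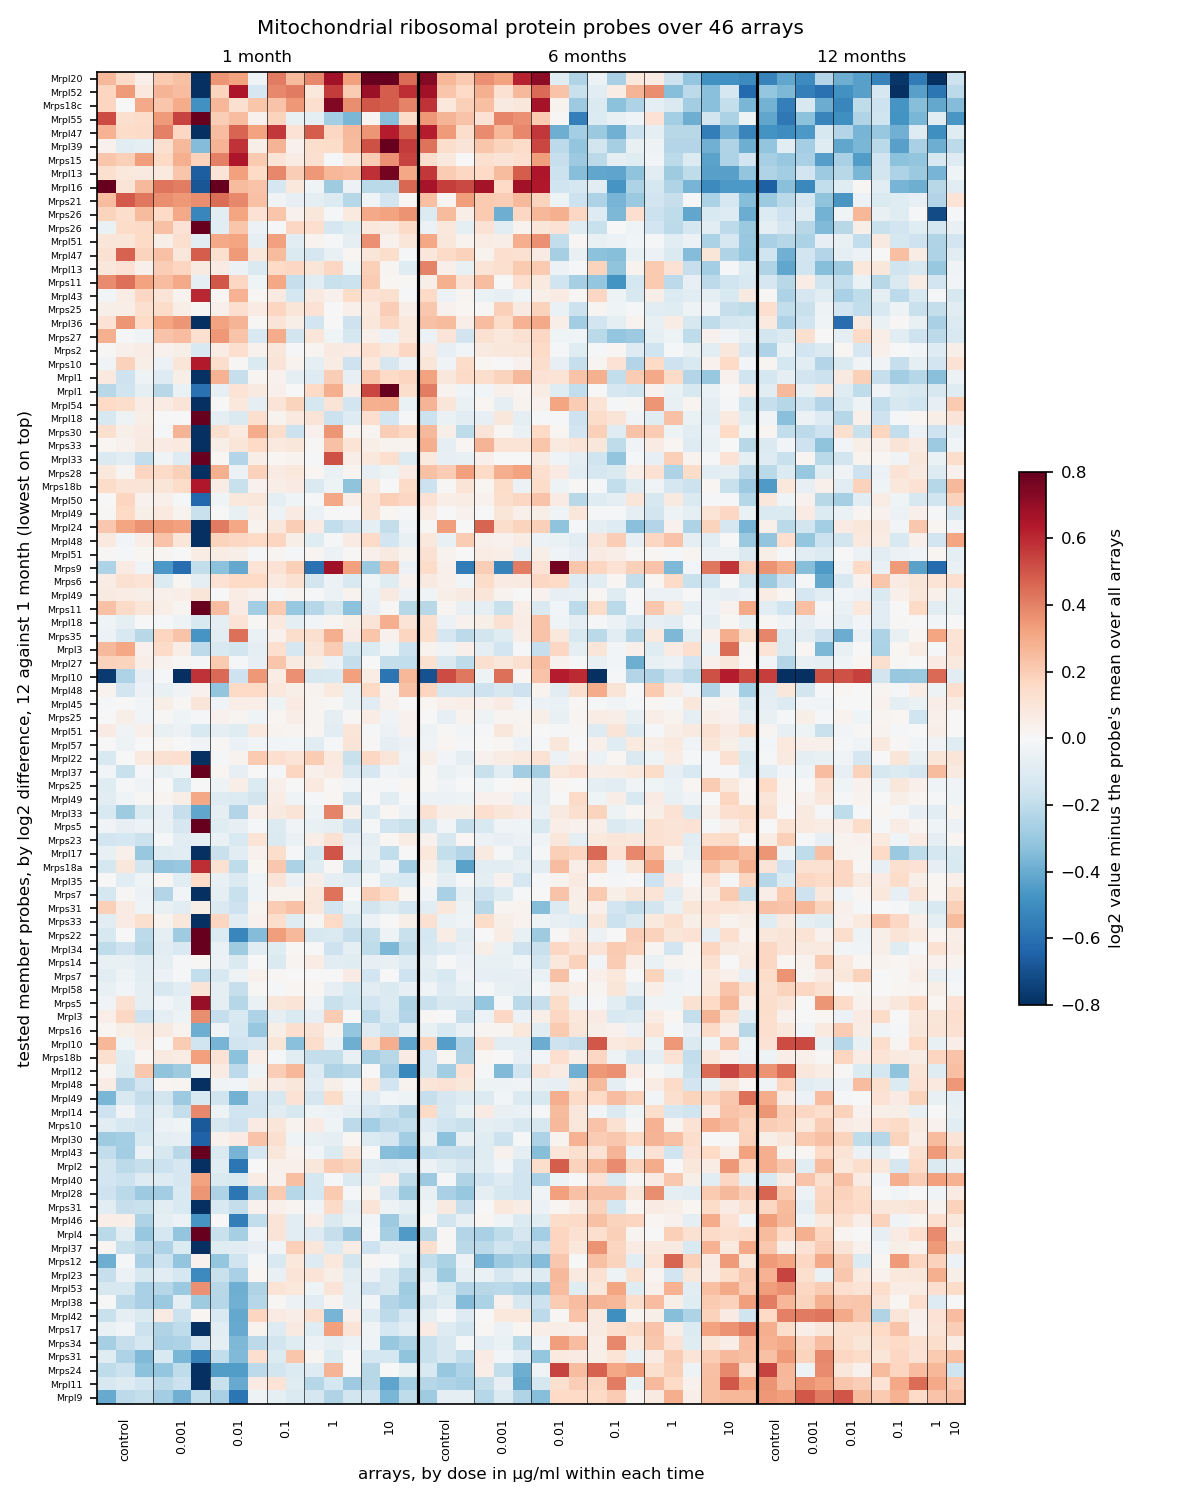
Log2 value of each of the 98 tested member probes (rows, sorted by the difference between 12 and 1 month) on each of the 46 arrays (columns, by dose within time), minus the probe's mean over all arrays, with the colour scale ending at 0.8 in both directions. Probes at the top fall and those at the bottom rise from 1 to 12 months, and many of them change within the 6-month arrays, between lower and higher doses.

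After 1 month of exposure few members changed. At 0.001, 0.01 and 0.1 µg/ml limma called 0 of the 98, against 0%, 0% and 0.00649% of all tested probes, with 22, 4 and 7 members at an unadjusted p under 0.05 (22.4%, 4.08% and 7.14%, against 25.7%, 2.00% and 5.91% of all tested probes). Without replicate 1 of 0.001 µg/ml 27 members were called at that dose and leaving out replicate 2 gave 33, since either leaves the outlying array as 1 of 2. Mrps21, a small-subunit protein with a bacterial counterpart, was the only member called at 1 µg/ml, where 0.298% of all tested probes were called. Its 3 control values were 9.23, 9.47 and 9.40 on the log2 scale. The arrays of 0.001 µg/ml read 9.35, 9.32 and 9.35, and those of 0.01 µg/ml 9.43, 9.37 and 9.21. Up to 0.01 µg/ml the values overlapped the controls, though the 0.01 µg/ml array at 9.21 lay below all 3 of them. At 0.1 µg/ml the values were 8.95 and 8.92, at 1 µg/ml 8.90, 8.87 and 8.75, and at 10 µg/ml 8.94, 8.83 and 9.00. Every array from 0.1 µg/ml upwards was therefore below every array at the lower doses. Mrps21 fell by 0.53 on the log2 scale at 1 µg/ml (SE 0.09, adjusted p = 0.0098) and by 0.44 at 10 µg/ml (SE 0.09, adjusted p = 0.0476). At 0.1 µg/ml the difference was -0.43 (SE 0.10, adjusted p = 0.250).

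At 10 µg/ml and 1 month the calls were Mrps21 and Mrpl1, a protein of the stalk of the large subunit where deacylated tRNA leaves, against 0.0713% of all tested probes (0.0454% higher and 0.0259% lower). The Mrpl1 probe ILMN_2747281 read 8.21, 8.27 and 8.35 in the controls and 8.97, 9.25 and 8.58 at 10 µg/ml, without overlap. It rose by 0.65 (SE 0.13, adjusted p = 0.0476). The second tested probe of Mrpl1 differed by 0.23 and was not called. Mrpl39, a large-subunit protein without a bacterial counterpart, differed by 0.77 (SE 0.17, adjusted p = 0.0657). Both calls were marginal. Leaving out any of 35 of the 46 arrays, all 3 controls among them, brought their number to 0 or 1, and the largest number without any 1 array was 3. At 1 µg/ml leaving out 1 array gave between 0 and 3 calls, with 0 without replicate 2 or 3 of the controls or of that dose and 2 or 3 without any of 6 other arrays, the outlying one among them.

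The dose trend is a slope over dose ranks, counting the control as 0 and the highest dose as 5, so that its unit is log2 per rank, or step. At 1 month it called 10 members, or 10.2% against 5.58% of all tested probes, with 7 rising (background 2.79%) and 3 falling (background 2.8%). Mrps21 fell by 0.12 per step (SE 0.02, adjusted p = 8.29e-05), and Mrps11, the counterpart of a bacterial protein of the small-subunit platform, fell by 0.07 per step (adjusted p = 0.0437). Mrpl55 fell by 0.17 per step (adjusted p = 0.0447). Those that rose were Mrpl20 by 0.16 per step, Mrpl1 by 0.13, Mrpl39 by 0.12, Mrpl13 by 0.10, Mrps7 by 0.07 (probe ILMN_2981818), Mrpl33 by 0.05 and Mrpl18 by 0.04, with adjusted p-values between 0.0009 and 0.0440. Without the outlying array the slope of Mrpl55 was -0.11, and Mrpl13, Mrpl33 and Mrpl18 were not called (adjusted p = 0.0509, 0.0531 and 0.0578). Of the 7 that rose, 6 belong to the large subunit, as do 59 of the 98 tested members. Mrpl13, Mrpl33 and Mrpl18 are among the 6. Without any of the 3 controls 3 members were called, and 3, 6, 3 and 2 without replicates 2 and 3 of 1 µg/ml and replicates 1 and 2 of 10 µg/ml, while 17 and 21 were called when replicate 1 or 2 of 0.001 µg/ml was left out. Mrpl20 is the counterpart of a bacterial protein that takes part in early assembly of the large subunit, and Mrps7 binds the head of the small one.

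The control and 0.001 µg/ml arrays of 1 month lie in the first run of 8 sample numbers, and 0.1 and 1 µg/ml in the second, so this trend moves with position in the sample order. The arrays of 0.01 µg/ml are split, with 2 in the first run and 1 in the second. Those of 10 µg/ml are split too, with 2 in the second run and 1 in the third. Within the 8 arrays of the second run, which hold doses from 0.01 to 10 µg/ml, 8 of the 10 slopes had the same sign. This count covers only members picked by their call over all 1-month arrays, which include these 8. Agreement in sign is therefore partly built in, and the share over all tested probes was not counted. In that run Mrps21 had a slope of -0.11 per step, Mrpl39 of 0.23, Mrpl20 of 0.31 and Mrpl1 of 0.20. There 0 of the 98 members were called, with 15 at an unadjusted p under 0.05. Mrpl33 and Mrps11 had slopes of the opposite sign. With the runs as a term in the fit the number of members called was also 0, with 8 at an unadjusted p under 0.05. The part of the order in the calls at 1 month was not tested further.

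**Figure D2:**
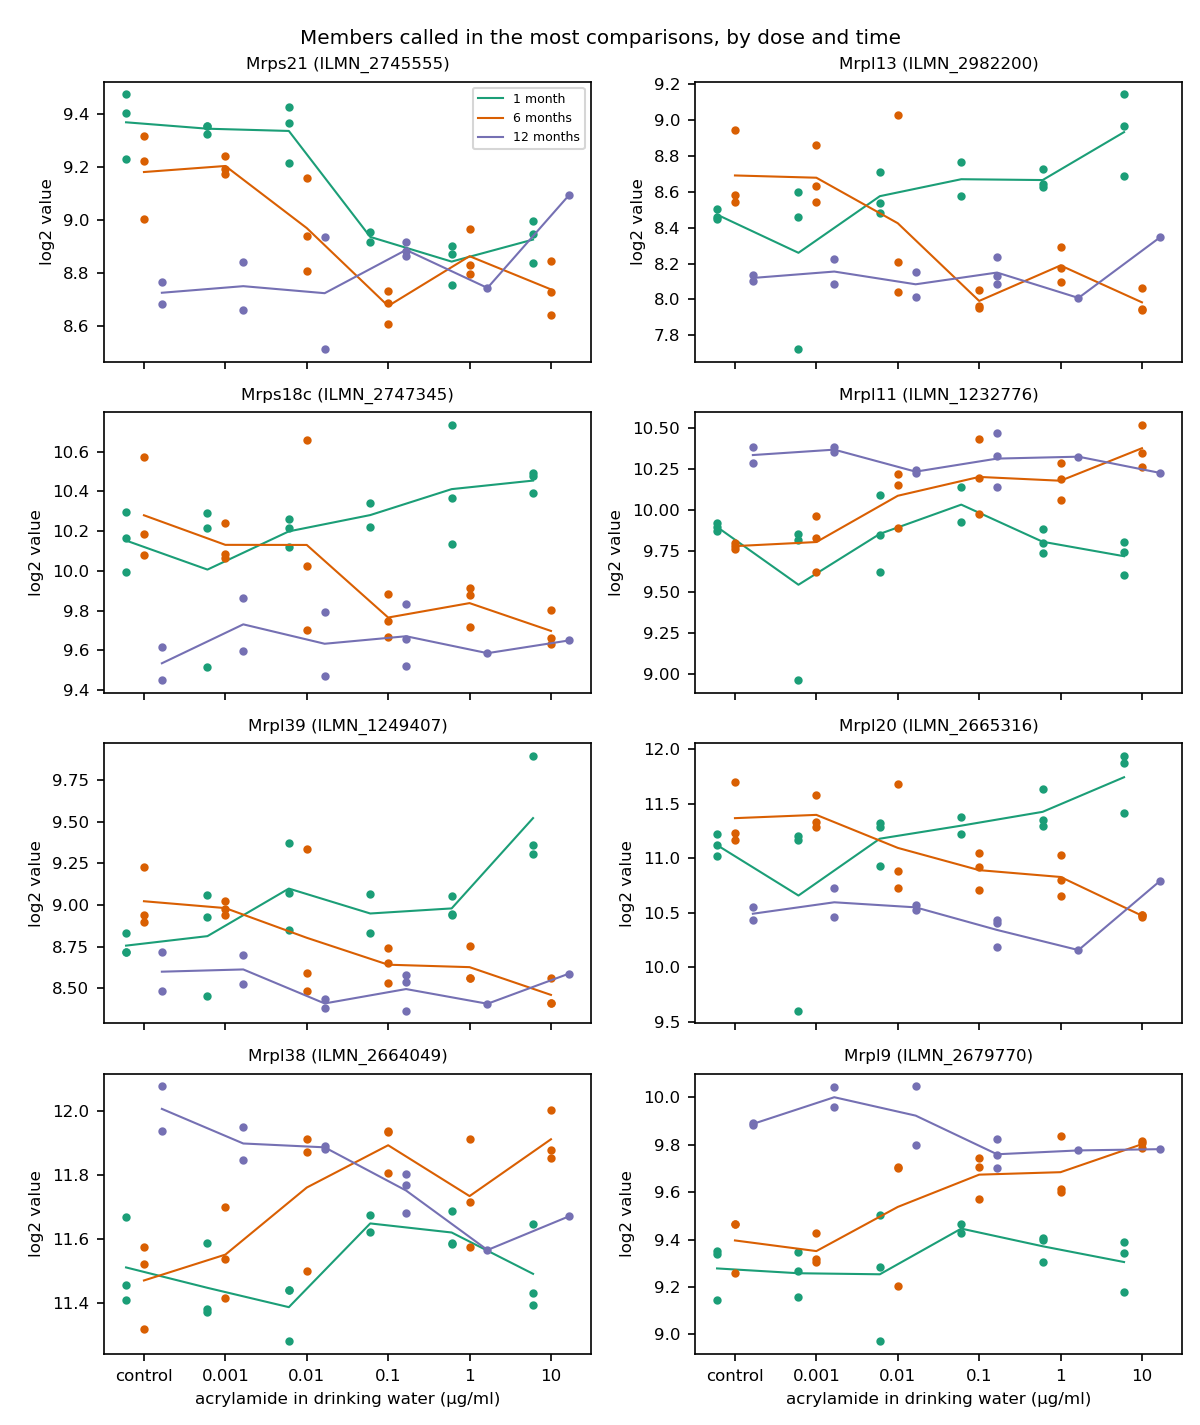
Log2 value on every array (points) and group mean (lines) of the 8 members called in the largest number of comparisons, by acrylamide concentration in drinking water (categories, in µg/ml) and exposure time (colour). In Mrps21 both the 1-month and the 6-month values from 0.1 µg/ml upwards lie below those of the controls, and in Mrpl20 and Mrpl39 the 6-month values at 10 µg/ml lie within the range of the 12-month arrays.

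At 6 months the low doses called no member. Limma called 0% of all tested probes at 0.001 µg/ml and 0% at 0.01 µg/ml, with 0 and 9 members at an unadjusted p under 0.05 (0% and 9.18%, against 0.908% and 8.53% of all tested probes). At 1 µg/ml no member was called, against 0.311% of all tested probes, with 19 members at an unadjusted p under 0.05 (19.4%, against 16.6%). Without the outlying array 12 were called at 1 µg/ml. Leaving out the first replicate of 0.01 µg/ml gave 4 calls at 1 µg/ml and 7 at 0.01 µg/ml. At 0.1 µg/ml 8 members were called, 8.16% against 6.03% of all tested probes. Of these 3 were higher (background 3.15%) and 5 lower (background 2.87%). Mrps21 fell by 0.51 (SE 0.09, adjusted p = 0.0034), from control values of 9.22, 9.00 and 9.32 to 8.73, 8.61 and 8.68. Mrpl16, a large-subunit protein near the peptidyl transferase centre, fell by 0.85 (SE 0.24, adjusted p = 0.0350), from 9.40, 9.30 and 9.27 to 8.66, 8.27 and 8.50. Mrpl13 (probe ILMN_2982200) fell by 0.70, Mrps11 (probe ILMN_2681946) by 0.46 and Mrpl47 (probe ILMN_2723579) by 0.39. Those that rose were Mrps24 by 0.60, Mrpl38, a mitochondria-specific protein of the large subunit, by 0.42, and Mrpl49 (probe ILMN_2634295) by 0.34. In all 8 the groups did not overlap, but these members were picked by their call on the same arrays. Groups were also apart in members without a call, such as Mrpl34, with a difference of 0.27 (adjusted p = 0.511 in limma). The share of all tested probes without overlap was not counted.

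At 10 µg/ml and 6 months 23 members were called, 12 higher (background 9%) and 11 lower (background 8.37%). This is 23.5% of members, against 17.4% of all tested probes, with 27.1% in the large and 17.9% in the small subunit. The median difference was 0.08, against 0.02 over all tested probes, and the quartiles were -0.16 and 0.22. Among the 12 that rose were Mrpl12 and Mrpl11 of the stalk at which translation factors bind. Mrpl12 went from 9.98, 9.85 and 10.24 to 10.58, 10.67 and 10.57, a rise of 0.58 (SE 0.13, adjusted p = 0.0035). Mrpl11 went from 9.80, 9.78 and 9.76 to 10.26, 10.52 and 10.35, a rise of 0.60 (SE 0.15, adjusted p = 0.0081). Neither overlapped its controls. Mrpl58, a release-factor-like protein that frees stalled ribosomes, rose by 0.21 (SE 0.05, adjusted p = 0.0063). The other 9 were Mrps24 by 0.48, Mrpl38 by 0.44, Mrpl28 by 0.43, Mrpl49 by 0.42, Mrpl9 by 0.41, Mrps31 by 0.40, Mrps10 by 0.39, Mrpl53 by 0.38 and Mrpl23, which lies at the exit of the peptide tunnel, by 0.30.

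Among the 11 that fell, Mrpl16 had the largest difference of the 98 members. Its values at 10 µg/ml were 8.23, 8.29 and 8.29, and it fell by 1.06 (SE 0.24, adjusted p = 0.0042). Mrpl20 went from 11.70, 11.23 and 11.17 to 10.48, 10.48 and 10.46, and fell by 0.89 (SE 0.26, adjusted p = 0.0172). Mrpl13 (probe ILMN_2982200) went from 8.94, 8.58 and 8.55 to 7.95, 7.94 and 8.06, and fell by 0.71 (SE 0.18, adjusted p = 0.0071). In each of these the dosed arrays lay below all controls and replicate 1 of the controls was the highest. Mrpl47 (probe ILMN_1226238) fell by 0.85, Mrps18c by 0.58, Mrpl39 by 0.56, Mrps21 by 0.44, Mrps15 by 0.35 and Mrps25 by 0.23. Mrps18c is one of 3 related proteins that correspond to a single bacterial protein. Mrpl51 was called with 2 probes, which fell by 0.37 and 0.12. The other tested probes of Mrpl13 and Mrpl47 differed by -0.26 and -0.29 and were not called.

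**Figure D3:**
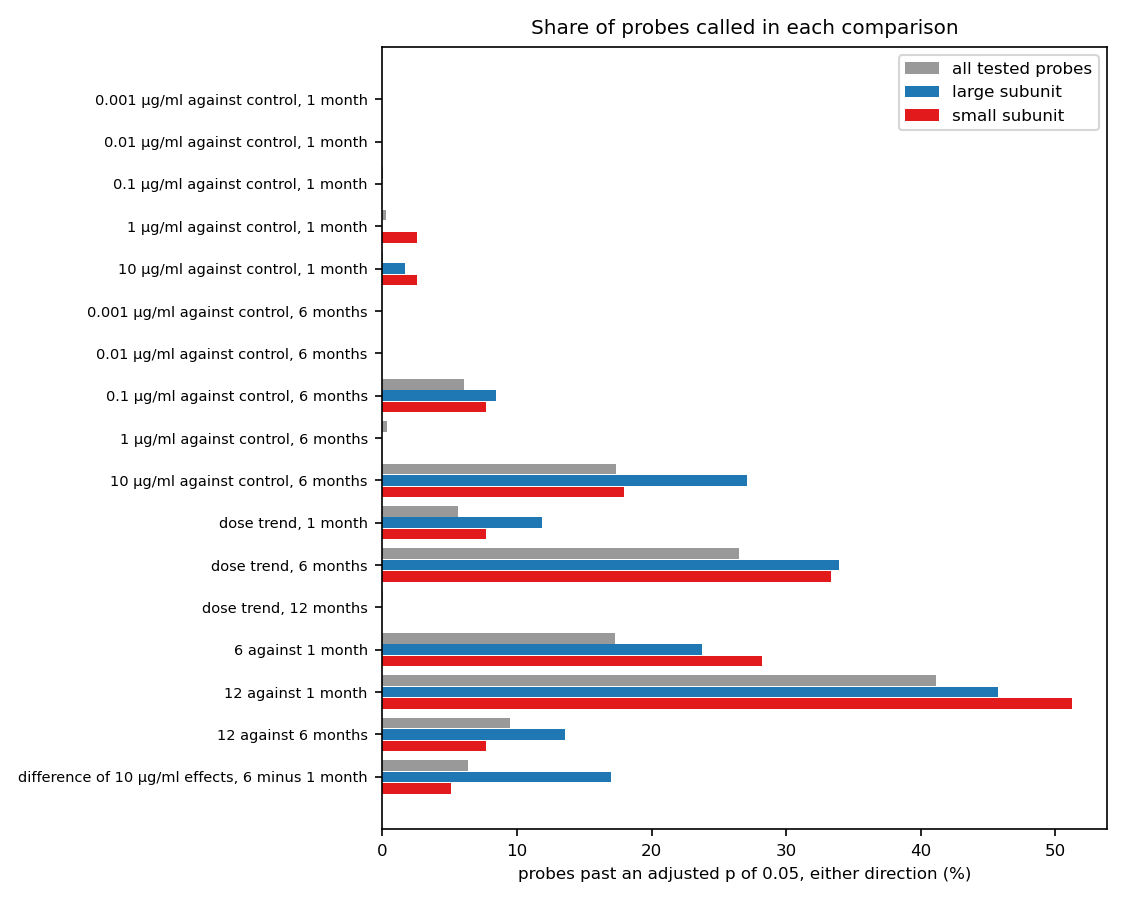
Percentage of probes past an adjusted p of 0.05 in either direction in each of the 17 comparisons (bars from 0), for all 15419 tested probes, the 59 tested probes of the large subunit and the 39 of the small subunit. The shares of the large and small subunit run from 0 in several low-dose comparisons to 45.8% and 51.3% for 12 against 1 month, where all probes are at 41.2%. In other comparisons they part. For the difference of the 10 µg/ml effects the large subunit is at 16.9% and the small one at 5.13%, against 6.38% of all probes.

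These counts depend on single arrays. Without replicate 1 of the 6-month controls 10 members were called at 10 µg/ml, without replicate 3 of 10 µg/ml 13 were, and without the outlying array of 0.001 µg/ml at 1 month, which belongs to neither group but enters the pooled spread, 42 were. At 0.1 µg/ml there were 2, 3 and 2 calls without each of the 3 controls, 1, 1 and 5 without each of the dosed arrays, and 20 without the outlying array. Counts from such fits, here and in the other paragraphs, are given without the share of all tested probes called in the same fit. They do not show whether members changed more often than other probes there.

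The dose trend at 6 months called 33 members, 19 rising (background 13.8%) and 14 falling (background 12.7%), or 33.7% against 26.5% of all tested probes. The steepest were Mrpl16, which fell by 0.23 per step, Mrpl20 by 0.18, Mrpl47 by 0.17 (probe ILMN_1226238) and Mrpl13 by 0.16 (probe ILMN_2982200). Mrpl11 rose by 0.12 per step, Mrpl12 and Mrps12, which forms part of the decoding centre, each by 0.10, and Mrpl9 by 0.09. Mrps21 fell by 0.10 per step (SE 0.02, adjusted p = 5.45e-05). Without the outlying array 51 members were called. The count was 17 when the 10 µg/ml arrays were left out, an alternative chosen after seeing the data.

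Values at 6 months also moved with the sample order. The controls, 0.001 µg/ml and replicate 1 of 0.01 µg/ml lie in the third run of 8, replicates 2 and 3 of 0.01 µg/ml with 0.1 and 1 µg/ml in the fourth, and 10 µg/ml in the fifth. The 3 arrays of 0.01 µg/ml, which shared dose and time, were split by this boundary. In Mrpl20 they read 11.68, then 10.88 and 10.72, in Mrpl13 9.03, then 8.21 and 8.04, and in Mrpl9 9.20, then 9.70 and 9.71. In Mrpl20 the first array lay within the range of the 6-month controls and the other two within that of 0.1 µg/ml. In Mrpl13 the first was above all 6-month controls and the other two below all of them, and in Mrpl9 the first was below all controls and the other two above all of them. Of the 33 members with a called slope, 32 differed between these arrays of 0.01 µg/ml in the direction of their slope, and all 8 called at 0.1 µg/ml did so too. These counts cover only members picked by their call and compare 1 array with 2. The share over all tested probes was not counted.

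Within the 8 arrays of the fourth run, from 0.01 to 1 µg/ml, 13 of the 33 slopes had the same sign as the slope over all arrays. This count too covers only members picked by their call, without a share over all tested probes. In that run alone 0 members were called (7 at an unadjusted p under 0.05). With the runs as a term, the number called at 0.1 µg/ml went from 8 to 0 (3 at an unadjusted p under 0.05). The 10 µg/ml arrays share no run with a 6-month control, so for that dose at 6 months, position in the sample order and dose cannot be told apart. Their run does hold controls of 12 months. Those mice were 16 to 17 months old, against 11 to 12 months at 6 months of exposure. Age and position in the order therefore cannot be told apart in them. Of the 23 members called at 10 µg/ml, 22 had a mean in the 12-month controls nearer to that of 10 µg/ml at 6 months than to that of the 6-month controls. In 21 of them both 12-month controls lay beyond all 6-month controls on the side of the dosed arrays. For Mrpl20 these controls read 10.43 and 10.55, for Mrpl38 12.08 and 11.94. The counts of 22 and 21 cover only members picked by their call at 10 µg/ml. The share over all tested probes was not counted, and the cause was not tested.

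**Figure D4:**
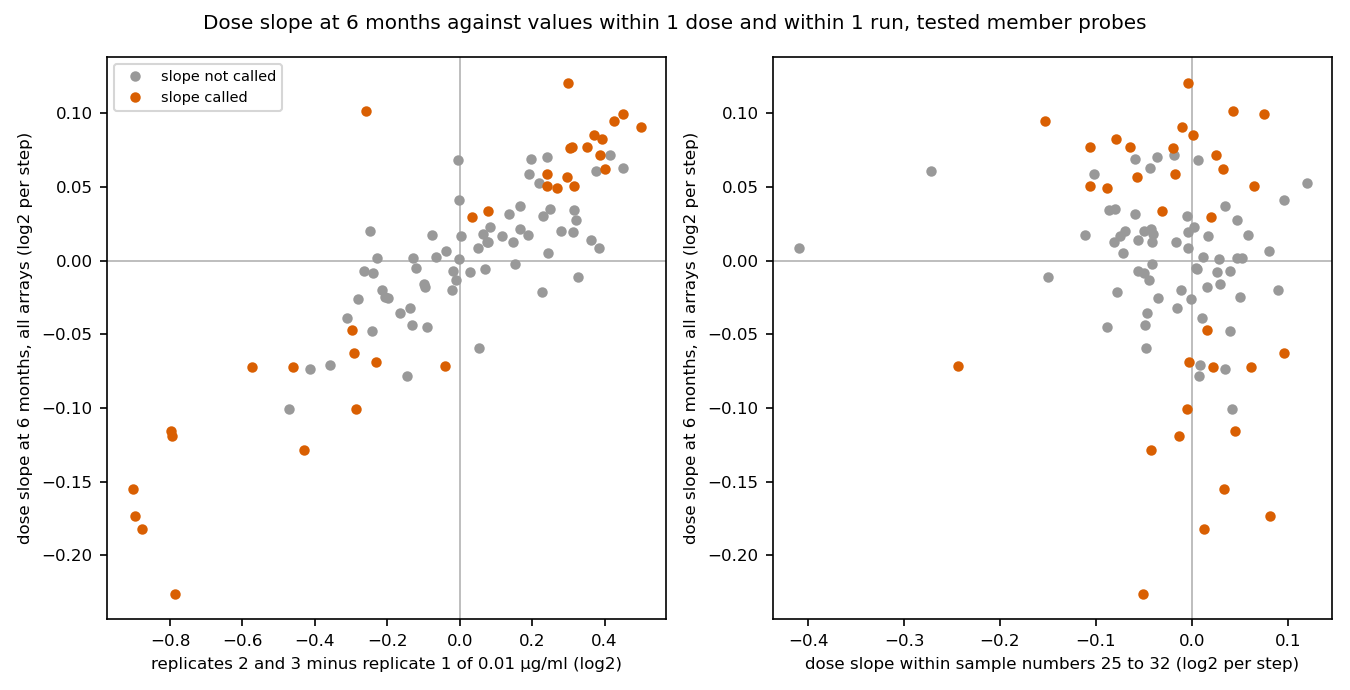
Dose slope at 6 months over all arrays (vertical axis, log2 per dose step) of the 98 tested member probes, against the difference between replicates 2 and 3 and replicate 1 of 0.01 µg/ml at 6 months (left, log2) and against the slope within the fourth run of sample numbers (right, log2 per step), with called slopes in orange. On the left 32 of the 33 called slopes have the sign of the difference within a single dose, and on the right 13 of 33 have the sign of the slope within the run. Both counts cover called members only, without a share over all tested probes.

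Some cell type markers were called in the same comparison, in which 9% of all tested probes were higher and 8.37% lower. With lists this short nothing was read from a count of calls alone. At 10 µg/ml and 6 months 5 of 9 tested markers of elongating spermatids fell (Tnp1, Tnp2, Odf1, Akap4 and Oaz3) and 1 rose (Prm1). The mean log2 value of the 9 ranged from 13.42 to 13.46 among control arrays and from 13.07 to 13.12 among dosed ones. Of 9 Sertoli cell markers 2 rose (Fshr and Shbg), and the mean of the 9 was 9.44 to 9.52 among controls and 9.70 to 9.76 with the dose. Of 9 round spermatid markers 4 fell, with means of 11.50 to 11.57 among controls and 11.15 to 11.22 with the dose. Of 9 spermatocyte markers 2 rose and 4 fell, and their mean went from 11.97 to 12.06 down to 11.87 to 11.89. Of 5 markers of peritubular myoid and smooth muscle cells 2 rose (Acta2 and Mylk), and their mean went from 9.73 to 9.82 up to 10.11 to 10.24. Of 5 endothelial markers 1 rose, with means of 7.82 to 7.86 and 7.87 to 8.02. In these 6 lists the dosed arrays did not overlap the controls. The means of the lists for spermatogonia, Leydig cells, macrophages, epididymis and blood overlapped between the groups, and for fat the single tested marker, Adipoq, was lower on every dosed array and was not called. At 0.1 µg/ml the mean of the spermatid markers was 13.10 to 13.25 and that of the Sertoli cell markers 9.60 to 9.63. Their part in the differences of the ribosomal protein genes was not tested.

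At 12 months the dose trend called no member in limma, against 0.013% of all tested probes, with 9 members at an unadjusted p under 0.05 (9.18%, against 8.41%). Without replicate 1 of 0.001 µg/ml at 12 months 1 was called. The smallest p was that of Mrps6, with a slope of 0.08 per step (SE 0.02, adjusted p = 0.186). The highest doses had 1 array each at this time.

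The effect of 10 µg/ml was then compared between 6 months and 1 month with an interaction contrast, which called 12 members, 5 higher (background 2.65%) and 7 lower (background 3.73%) at 6 months, or 12.2% against 6.38% of all tested probes. Mrpl39 differed most clearly. At 1 month its controls read 8.83, 8.71 and 8.72 and the 10 µg/ml arrays 9.31, 9.90 and 9.36. At 6 months its controls read 9.23, 8.94 and 8.90 and the 10 µg/ml arrays 8.41, 8.56 and 8.41. The dosed arrays thus lay above all controls at 1 month and below all of them at 6 months, with a difference of -1.33 between the effects (SE 0.24, adjusted p = 0.0042). The mean of the 9 spermatocyte markers had the same order, from 11.85 to 12.02 in controls and 12.03 to 12.14 at 10 µg/ml after 1 month, against the fall at 6 months given above, and 3 of the 9 were lower in the interaction (Sycp1, Syce2 and Tcte3). No cell type marker was called at 10 µg/ml and 1 month. The interaction also called 2 round spermatid markers and 1 elongating spermatid marker lower, and 2 Sertoli cell and 2 myoid markers higher. Stra8 among the spermatogonia markers and Adipoq of fat were lower too. Their part in the interaction of the members was not tested. Mrpl20 had a difference of -1.52 (SE 0.37, adjusted p = 0.0140) and Mrpl13 of -1.17 (SE 0.25, adjusted p = 0.0083, probe ILMN_2982200). Mrpl12 went the other way, with 0.88 (SE 0.18, adjusted p = 0.0080). The other tested probe of Mrpl13, which is brighter, had a difference of -0.22 and was not called. Mrpl47 had -1.15 on probe ILMN_1226238 and -0.11 on its brighter probe, which was not called. The run boundaries fall differently in the samples of these times, and the interaction could not be fitted with the runs as a term. Since dose and position in the order cannot be told apart at 10 µg/ml and 6 months, the same limit holds for the interaction. Without replicates 1 and 2 of the 1-month controls the number called was 7 and 5, 5 when replicate 2 of 10 µg/ml at 1 month was left out, without replicate 1 of the 6-month controls 4, without replicate 3 of 10 µg/ml at 6 months 6, and without the outlying array 22.

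**Figure D5:**
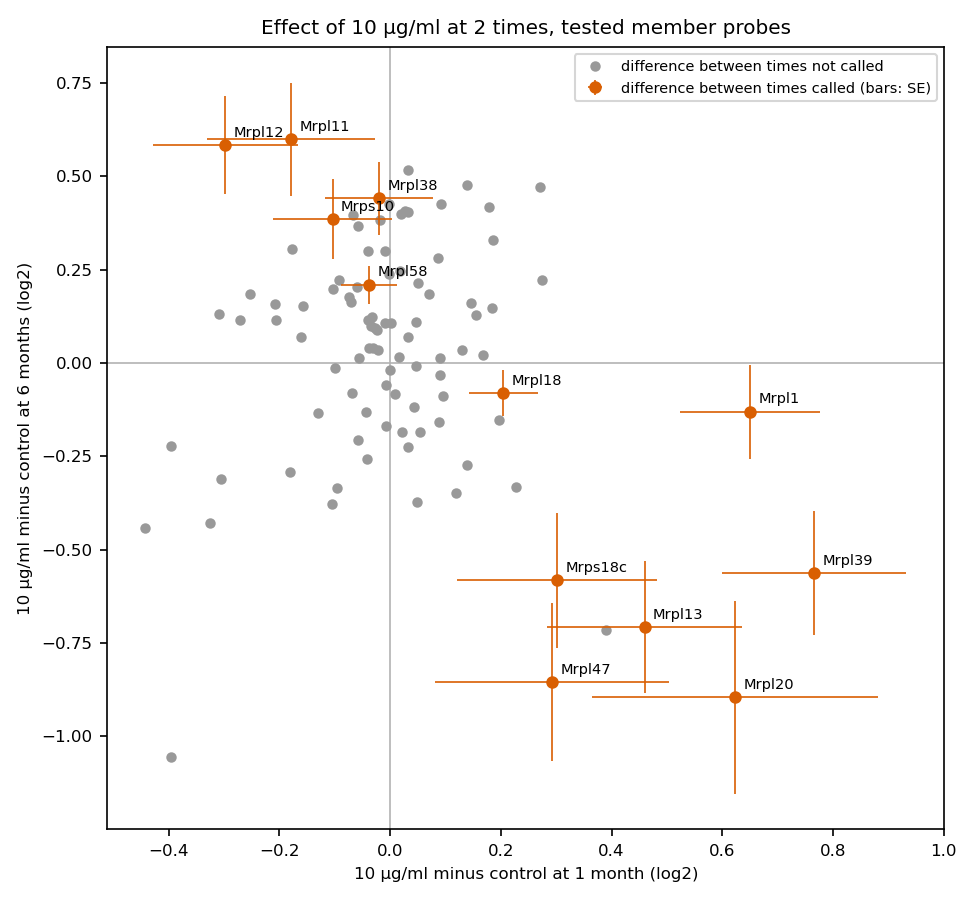
Log2 difference between 10 µg/ml and control at 1 month (horizontal) and at 6 months (vertical) for the 98 tested member probes, with the 12 probes called in the interaction contrast in orange with their SE. At 6 months dose and position in the sample order cannot be told apart. Mrpl39, Mrpl20 and the called probe of Mrpl13 lie at positive values at 1 month and negative ones at 6 months, and Mrpl12 the reverse.

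Time points were compared as means over all 6 doses, and here age, exposure time and position in the sample order cannot be told apart. Between 6 and 1 month 15 members rose (background 9.38%) and 10 fell (background 7.91%), 25.5% against 17.3% of all tested probes. Mrps15 had a difference of -0.29 (SE 0.05, adjusted p = 0.0002), from a mean of 8.74 to 8.44, and Mrps24 rose by 0.31 (SE 0.06, adjusted p = 0.0018). Without the outlying array 43 members were called in place of 25, and 16 when replicate 1 of 0.1 µg/ml at 1 month was left out.

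Between 12 and 1 month 26 members rose (background 22.9%) and 21 fell (background 18.3%), 48.0% against 41.2% of all tested probes, with a median difference of 0.00 and quartiles of -0.11 and 0.15. Mrpl9, a large-subunit protein with a bacterial counterpart, rose by 0.54 (SE 0.05), from a mean of 9.32 at 1 month to 9.57 at 6 and 9.86 at 12 months. Its 11 arrays at 12 months read between 9.70 and 10.05, and the highest of its 17 arrays at 1 month was 9.51, so that these ranges did not overlap. Mrpl11 rose by 0.49 (SE 0.08), Mrps24 by 0.38, Mrps31 by 0.36 and Mrps34, a mitochondria-specific small-subunit protein, by 0.33.

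Mrpl20 fell by 0.75 (SE 0.13), Mrpl52 by 0.67 (SE 0.14), Mrps18c by 0.62 (SE 0.09), Mrpl55 by 0.58 (SE 0.15), Mrpl47 by 0.58 (SE 0.11, probe ILMN_1226238), Mrpl39 by 0.50 (SE 0.08) and Mrps15 by 0.48 (SE 0.06). The adjusted p-values of these 12 were at most 0.0022. Mrpl20 had means of 11.24, 11.01 and 10.49 at 1, 6 and 12 months, and its 12-month arrays ranged from 10.16 to 10.79. The outlying array, at 9.60, was the lowest Mrpl20 value at any time, and the other arrays of 1 month were at or above 10.93. Between 12 and 6 months 6 members rose (background 5.25%) and 5 fell (background 4.24%), 11.2% against 9.49% of all tested probes, and the falls were larger than the rises at their extremes. Mrpl20 fell by 0.52 (SE 0.13, adjusted p = 0.0102), Mrpl52 by 0.50 (SE 0.14, adjusted p = 0.0232), Mrps18c by 0.34, Mrpl13 by 0.21 (probe ILMN_2982192) and Mrps15 by 0.19. The smallest p-values were those of 2 rises, Mrpl9 by 0.28 (SE 0.05, adjusted p = 0.0019) and Mrpl40 by 0.23 (SE 0.05, adjusted p = 0.0059), and Mrpl42, Mrpl11, Mrps31 and Mrpl23 rose by 0.26, 0.23, 0.19 and 0.16. Without the outlying array 27 were called in that comparison.

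Other parts of the mitochondrial gene expression machinery were counted by the brightest probe of each gene. Their counts at 10 µg/ml and 6 months stand beside 9% of all tested probes that were higher and 8.37% that were lower, and with lists this short nothing was read from them about a list. Among 4 tested proteins with other names that are part of the mitochondrial ribosome or associated with it, 2 rose at 10 µg/ml and 6 months. These were Dap3, a small-subunit GTP-binding protein, by 0.36 (SE 0.10, adjusted p = 0.0174), and Mpv17l2 by 0.51 (SE 0.15, adjusted p = 0.0176). Of 9 translation factors 1 rose, the elongation factor Tufm, by 0.46 (SE 0.13, adjusted p = 0.0144). Of 23 genes for ribosome assembly and mitochondrial RNA, 3 rose and 4 fell. The RNA-binding protein Slirp fell by 0.64 (SE 0.13, adjusted p = 0.0022), the GTPase Noa1 rose by 0.32 (SE 0.07, adjusted p = 0.0027) and the rRNA methyltransferase Nsun4 rose by 0.67 (SE 0.20, adjusted p = 0.0209). Of 10 aminoacyl-tRNA synthetases 0 were called. Of 9 genes for transcription and genome maintenance, the mitochondrial RNA polymerase Polrmt rose by 0.36 (adjusted p = 0.0286) and the single-stranded DNA-binding protein Ssbp1 fell by 0.40 (adjusted p = 0.0429). The assembly and RNA list and the transcription and maintenance list thus held calls in both directions. The calls among the ribosomal or associated proteins with other names and the translation factors were rises.

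Between 12 and 1 month, 2 of the 4 ribosomal or associated proteins with other names rose and 1 fell. Of the 9 translation factors 2 rose and 1 fell, and of the 23 assembly and RNA genes 8 rose and 6 fell. Of the 10 synthetases 2 rose, and of the 9 transcription and genome maintenance genes 3 rose and 1 fell. In this comparison 22.9% of all tested probes were higher and 18.3% lower, so that counts of this size are common among probes in general. Slirp and Ssbp1 fell by 0.44 and 0.35, with adjusted p-values of 8.40e-06 and 1.63e-04.

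Probes of the same gene did not always move together. There were 21 genes with at least 2 tested probes. At 10 µg/ml and 6 months 7 of them had a call, in 0 of the 7 were all probes called, and in 4 a probe had the opposite sign. For Mrps10 one probe rose by 0.39 (ILMN_2691360) and the other differed by -0.01. For Mrpl51 the probes that fell by 0.37 and 0.12 stood beside another at 0.12. Mrpl49 had differences from -0.08 to 0.42 over 4 probes, and Mrps25 from -0.23 to 0.11 over 3. These values do not say whether probes of a gene read different transcripts.

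Between 12 and 1 month 13 of these genes had a call, all probes were called in 4 of them, and 5 held probes of opposite sign. Both probes of Mrpl13 fell, by 0.45 and 0.26, both of Mrpl47 by 0.58 and 0.26, and both of Mrps26 by 0.30. In Mrpl43 both were called in opposite directions, one at -0.21 (SE 0.05, adjusted p = 0.0013, ILMN_2598222) and the other at 0.20 (SE 0.08, adjusted p = 0.0484, ILMN_2633805). The other 4 were Mrpl49, Mrps10, Mrps18b and Mrps25. Opposite signs beside a call were also found for Mrps11 at 0.1 µg/ml and in the trend of 6 months, for Mrpl13 and Mrpl18 in the trend of 1 month, for Mrpl18 in the interaction and for Mrpl33, Mrpl37 and Mrps31 between 6 and 1 month.

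Members differed widely in how much they varied between mice of the same group. A probe of Mrpl10 (ILMN_2822622), a large-subunit protein at the base of the stalk, had the largest SD within groups, 0.54. Its 2 controls at 12 months read 10.23 and 8.24, the arrays of 0.001 µg/ml at 12 months 8.29 and 10.19, and the 6-month controls 8.98, 10.20 and 10.10. On this probe, levels near 8.3 and near 10.2 thus occurred at the same dose and time. The other tested probe of Mrpl10 (ILMN_2822621) ranged from 10.02 to 10.98 over all arrays, with an SD of 0.23. After ILMN_2822622 the largest SDs were those of Mrpl55, Mrpl52 and Mrpl24, at 0.37, 0.36 and 0.33. Each of these had its extreme value on the outlying array (11.95, 8.20 and 8.64). Without that array, an alternative chosen after seeing the data, their SDs were 0.19, 0.24 and 0.16. That of the Mrpl10 probe ILMN_2822622 was then 0.52 and that of Mrps9, then second, 0.32. The smallest were those of Mrpl51 (ILMN_2831273), Mrpl45, Mrpl49 (ILMN_2929031) and Mrpl57, at 0.04 to 0.05, and these probes had mean levels between 7.77 and 7.81, just above the filter at 7.76, where differences are compressed. No comparison called Mrpl10.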

How the data were processed

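RNA from individual testes was hybridised to Illumina mouse bead arrays, and samples were grouped by the dose and time in their titles. The authors deposited processed log2 values, made with lumi per the submitters' processing notes (version not given in the sources used here), whose columns share quartiles and compress differences between dim probes. They also deposited non-normalized bead intensity values, of which 33 of the 45 columns used stand in another order than the probe names (rank correlation at most 0.0122 in size), so all values reported come from the log2 table. The intensities, with the order restored by rank matching for 25692 probes, served as an alternative, as did log2 values with cyclic loess. The column with the name 1 was left out, since such a name reads as a column number.

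Symbols came from the platform's probe annotation (23978 probes with 1 symbol, 0 with several, 1719 with none). Probes in the lowest 40% by their mean log2 value were left out. The other 15419 were fitted with limma 3.58.1 in R 4.3.3, with 18 group means and 1 pooled spread, so that a lone array of a group was taken to vary as other groups did. P-values were adjusted by the method of Benjamini and Hochberg over all 15419 probes and 0.05 was the threshold. Values are log2 differences, on which dim probes are understated.

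The named members are, in each comparison, up to 12 largest rises and 12 largest falls among those called, or the 5 smallest p-values where fewer than 5 were called. Added to these are the 8 members called in the most comparisons, genes with probes of opposite sign beside a call, and the 4 largest and 4 smallest SDs. Members, lists, motifs and rules were chosen with earlier results of these data known. Pathway and marker lists use the brightest probe of a gene. Replicate numbers did not pair the arrays, since deviations from the group means correlated by 0.006 on average over 306 pairs with the same number and by -0.003 over pairs with different numbers. On simulated data for 10 µg/ml against control at 6 months, over 15419 probes, 71% of changes of 0.5 and 87% of changes of 1 (log2) were recovered. The number of arrays limits the precision.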

Additional observations from a re-analysis of the deposited data

Results flagged for a closer look

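The difference from control at 10 µg/ml was not the same at 6 months and 1 month in 12 members. These were called by an interaction contrast in limma adjusted over all 15419 probes. At 6 months dose and position in the sample order cannot be told apart, since 10 µg/ml shares no run with the controls. The contrast therefore does not show whether the effect of the dose itself changed with time. Without replicate 1 of the 6-month controls 4 members were called. Each value is the log2 difference from control at 6 months minus that at 1 month. It was below 0 for Mrpl20 (-1.52), Mrpl39 (-1.33), Mrpl13 probe ILMN_2982200 (-1.17), Mrpl47 probe ILMN_1226238 (-1.15), Mrps18c (-0.88), Mrpl1 probe ILMN_2747281 (-0.78) and Mrpl18 probe ILMN_2823250 (-0.29). It was above 0 for Mrpl12 (0.88), Mrpl11 (0.78), Mrps10 probe ILMN_2691360 (0.49), Mrpl38 (0.46) and Mrpl58 (0.25). Adjusted p-values ranged from 0.0042 for Mrpl39 to 0.0474 for Mrps10. Of the 12, Mrpl1 was the member with a called effect at 1 month and no call at 6 months. In Mrpl1 the effect was 0.65 at 1 month and -0.13 at 6 months. Among genes with at least 2 tested probes, 5 had a call in the interaction. In 0 of these 5 were all probes called. No group held more than 3 arrays, so single arrays were not tested as outliers within groups.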

How the results depend on the processing

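Results are numbers of the 98 member probes called, and named log2 differences or slopes. Throughout the text, counts from alternative fits, by adjusted or unadjusted p, stand without the share of all tested probes in the same fit. They therefore do not set members against other probes. Of 179 named values 137 were called, and 57 of these lost the call without at least 1 array. Leaving out each array in turn gave 0 to 33 calls for 0.001 µg/ml, 0 to 3 for 1 µg/ml and 0 to 3 for 10 µg/ml at 1 month. At 6 months it gave 0 to 7 for 0.01 µg/ml, 1 to 20 for 0.1 µg/ml, 0 to 12 for 1 µg/ml and 10 to 42 for 10 µg/ml. For the trends it gave 2 to 21 at 1 month, 25 to 51 at 6 months and 0 to 1 at 12 months. It gave 16 to 43 for 6 against 1 month, 44 to 63 for 12 against 1 month, 8 to 27 for 12 against 6 months and 4 to 22 for the difference of the 10 µg/ml effects. With no filter on dim probes, which tests more probes, the counts were 0 at 10 µg/ml and 3 in the trend at 1 month, and 5 at 0.1 µg/ml and 6 months. Cyclic loess gave 0 at 10 µg/ml and 1 month. Non-normalized intensities gave 0 there, 3 in the trend at 1 month and 6 for the difference of effects. Fitting only the times compared gave 0 at 10 µg/ml and 1 in the trend at 1 month, 17 at 0.1 µg/ml and 6 months, 26 for 12 against 6 months and 6 for the difference of effects. Except where stated, the cause of these changes was not tested.

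Array weights raised most counts. They gave 3, 12 and 10 at 0.1, 1 and 10 µg/ml and 1 month, 30 at 0.01, 31 at 0.1, 21 at 1 and 46 at 10 µg/ml and 6 months, and 22, 53 and 1 in the trends at 1, 6 and 12 months. They gave 53 for 6 against 1 month, 29 for 12 against 6 months and 34 for the difference of effects. With runs of 8 as a fixed term the counts were 0 at 1 µg/ml, 0 at 10 µg/ml and 0 in the trend at 1 month, and 0 at 0.1 µg/ml and 6 months. At 0.1 µg/ml and 6 months Mrpl49 then turned to -0.0139 and Mrpl13 to 0.204, and the slope of Mrps11 at 1 month turned to 0.0217. That term could not be fitted for 10 µg/ml at 6 months, the trend at 6 months, the times and the difference of effects. As a random term, with an estimated correlation of -0.002 within runs, it changed no count by more than 1.5 times. Only 0.01 µg/ml at each time and 10 µg/ml at 1 month had arrays in more than 1 run. The group means therefore take up most differences between runs, and this fit cannot show how large those are. The replicate block gave 17 calls for 12 against 6 months in place of 11, and changed no other count by more than 1.5 times. The cause was not tested.

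Of the alternatives chosen after seeing the data, the second run alone gave 0 calls in the trend at 1 month, the fourth run alone 0 in the trend at 6 months, and the slope without 10 µg/ml 17. In the second run the slope of Mrpl33 was -0.0216 and of Mrps11 0.0221. In the fourth run slopes turned to -0.00386 for Mrpl11, -0.0099 for Mrpl9, -0.0196 for Mrps10, -0.0643 for Mrpl49, -0.0786 for Mrpl38, -0.106 for Mrpl28 and -0.153 for Mrps24, and to 0.0126 for Mrpl20, 0.0224 for Mrpl51, 0.033 for Mrpl13, 0.0445 for Mrpl39, 0.0618 for Mrps15 and 0.0816 for Mrpl47. Each run alone holds 8 arrays. Signal near background limits the 12 untested members.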
